A study of Mus musculus with 6 samples.

Results

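The FOS and JUN genes and their close relatives encode the subunits of the transcription factor AP-1, and 10 of them (Fos, Fosb, Fosl1, Fosl2, Jun, Junb, Jund, Atf3, Maff and Mafk) were followed in mouse fibroblasts that had lost the trithorax protein ASH2L for 24 h. They were chosen by gene symbol, as 10 of the 55401 genes in the deposited table, and each symbol matched 1 row. The cells were immortalized mouse embryo fibroblasts (iMEF), measured by RNA-seq as 3 libraries labelled with dTAG treatment for 24 h and 3 libraries without dTAG treatment, which the labels call WT. Both groups carried floxed Ash2l alleles whose exon 4 had been deleted by an inducible Cre-ER recombinase, driven by a CAGG promoter, and lived on a lentiviral human ASH2L fused to the FKBP12 F36V tag. dTAG-13 is a PROTAC that ties this tag to an E3 ubiquitin ligase, so that the fusion protein is degraded. The cells were a single clone, NG3, and no dTAG-13-treated cells without the tag were among the libraries. Effects of the compound and of ASH2L loss therefore cannot be told apart.

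AP-1 proteins share a basic region that contacts DNA and a leucine zipper that pairs 2 subunits. FOS proteins need a JUN partner, whereas JUN proteins can also pair with each other, and the dimers bind sites within the wider pattern TGANTCA. ATF3 is a stress-induced relative that joins JUN proteins on TGACGTCA, the site of the CREB/ATF factors. The small MAF proteins MAFF and MAFK lack an activation domain and pair with NRF2 or BACH1. In fibroblasts, serum growth factors acting through RAS and ERK switch Fos, Fosb and Junb on within minutes, and FOSL1 and FOSL2 accumulate later.

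At 24 h, 3 of the 10 genes fell: Atf3, Fos and Maff. None of the JUN genes passed the test, and the second FOS gene with a precise value, Fosl2, had a log2 fold change above 0. For each gene the deposited table gave a mean normalized count (all libraries of both groups together) and a log2 fold change, positive where dTAG-13-treated cells were higher. The fold change had been shrunk towards 0 and came with its standard error (SE) and a DESeq2 p-value. An adjusted p was given for 9 of the 10, as for 16773 genes in all, and adjusted p under 0.05 is the threshold used here. Of these 9 tested genes 3 were lower, 0 were higher and 6 did not pass. In all 16773 tested genes, 12.5% were lower and 7.45% higher, 19.9% in either direction. Under the other call rules tried, the shares of genes called lower and higher were 11.2% and 8.5% (recentred on genes with a mean of at least 100), 9.35% and 11.9% (recentred on 15 housekeeping genes), 7.88% and 4.49% (adjusted over all 24212 genes with a p-value) and 19.5% and 10.4% (adjusted over the 8236 genes with a mean of at least 100). With an adjusted p under 0.01, 9.11% were lower. At an unadjusted p under 0.05 there were 4 of the 10, the 3 lower genes and Fosl2. The median log2 fold change was −0.13 for the 9 tested members and −0.02 for all tested genes.

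The deposited table held no column per library. For each of the 8923 genes with reads and a mean up to 3, the deposited mean could be written, within 1e-12, as whole reads in 5 libraries times the worth of 1 read in each. So 5 libraries stood behind the means, not the 6 of the labels, and the study's legend names fewer replicates than the labels do. For 7 of the 10 members the combination had only 1 solution, which gave their reads in each library. These libraries are called L1 to L5, and which group each belongs to is not given, so their values are listed without groups. The signs of genes with 1 read in all bear on it. The log2 fold change was above 0 with the read in L1 (Fap, 0.034) or L5 (Cldn4, 0.022). It was below 0 with the read in L3 (Ckm, −0.027) or L4 (Emcn, −0.025). By these signs L1 and L5 would be treated and L3 and L4 untreated, while L2 was not placed. This placing was not tested further. L1 stood apart: over 2669 genes with a mean between 3 and 10, its average normalized count was 10.5, against 3.76 to 5.01 in the other 4. Fibroblast markers were high, with mean normalized counts of 109792 for Col1a2 and 36949 for Vim, but the fibroblast markers Dcn, Lum and Fap had only 5.68, 1.73 and 0.362. Epithelial Epcam, Krt8 and Krt18, endothelial Cdh5 and macrophage Adgre1 were listed at 0. In all, 4 of 7 epithelial, 1 of 6 endothelial and 2 of 7 blood and macrophage markers were at 0. So were 3 of 6 muscle and 2 of 6 neural markers. The rest were above 0, with 260 for neural Map2, 72.1 for Tubb3, 39.4 for macrophage Cd14 and 25.4 for Cd68. Endothelial Tek had 17.5, epithelial Cdh1 7.32 and muscle Des 5.91.

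Fos (ENSMUSG00000021250.13, GRCm38 chromosome 12, 85473890 to 85477273, plus strand), the founding immediate early gene of the family, had 43, 122, 101, 132 and 39 reads in L1 to L5. As normalized counts these were 77.8, 129, 104, 96.7 and 27.1, so L5 was the lowest library and L2 the highest. The deposited DESeq2 values give Fos a log2 fold change of −1.56 ± 0.30 (SE, adjusted p = 3.5e-07), a fall to 33.8% of the untreated level (95% interval 22.6% to 50.7%, from the SE). It had the 402nd lowest log2 fold change of the 16773 tested genes. Of the 1736 genes with a p-value and a mean within 1.5 times that of Fos, 18.2% were called lower and 3.97% had a lower log2 fold change.

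Atf3 (ENSMUSG00000026628.13, chromosome 1, 191170296 to 191218039, minus strand) had the largest fall of the members. Its normalized counts were 48.8, 85.8, 89.5, 77.7 and 17.4 in L1 to L5, from 27, 81, 87, 106 and 25 reads. L5 and L1 were the lowest libraries, and the other 3 lay close together. The fall was 1.84 ± 0.33 on the log2 scale (adjusted p = 6.7e-08), to 27.96% of the untreated level (17.8% to 43.9%). Only 1.69% of all tested genes had a lower log2 fold change.

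Maff (ENSMUSG00000042622.14, chromosome 15, 79346621 to 79359076, plus strand), a small MAF gene, had normalized counts of 194, 144, 188, 122 and 46.6 in L1 to L5. Here L5 alone was low, and L1 was the highest, in contrast to its low rank for Atf3. By the signs of the genes with 1 read, L1 and L5 would both be treated. The treated libraries would then hold both the highest and the lowest value of Maff. Maff fell by 0.79 ± 0.30 on the log2 scale (adjusted p = 0.011), to 57.9% of the untreated level (38.6% to 86.8%). With fold changes recentred on the housekeeping list, its adjusted p was 0.039. At an adjusted p under 0.01 it did not pass.

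**Figure D1:**
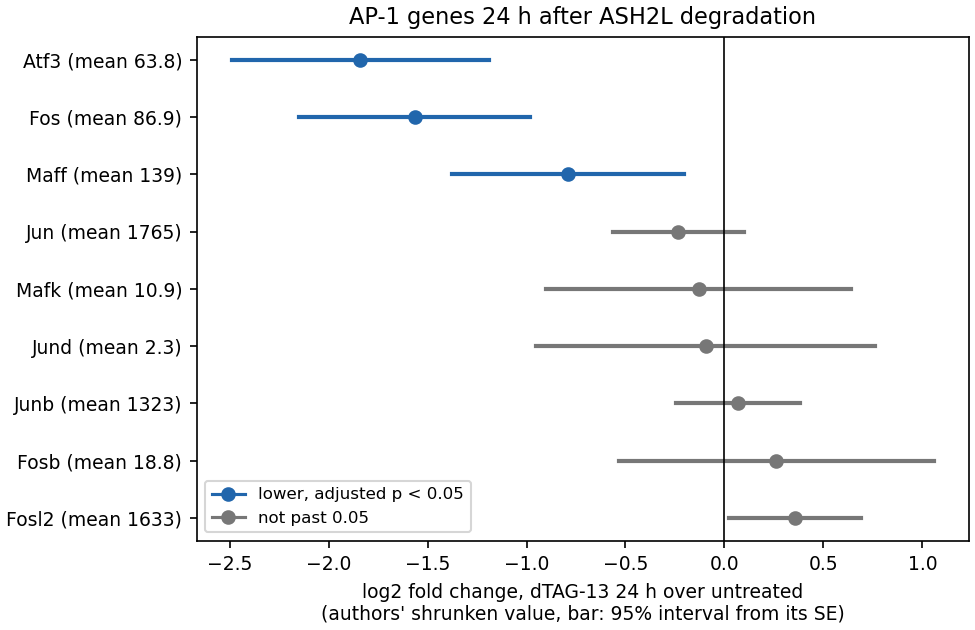
Log2 fold changes (24 h dTAG-13 against no dTAG) of the 9 tested AP-1 genes, with 95% intervals from the deposited SE (x axis) and the mean normalized count beside each name (y axis). The intervals of Atf3, Fos and Maff lie below 0 (−1.84, −1.56 and −0.79), those of Jun and Junb are narrow and span 0, and those of Mafk, Jund and Fosb are wide.

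The promoters of the 3 lower genes are shown because they share a short element that no other member's window held. RefSeq windows on GRCm38.p6, from 250 bases before to 50 after a start site, matched 9 of the 10 members, with 3 windows for Maff. Fosl1 had none. The hexamer TGACGT, the core of the CREB/ATF site, was searched on both strands; it lies inside the full site TGACGTCA. It was found in windows of 3 of 3 lower members and of 0 of 6 others. For Maff it was in window 2 only, not in windows 1 and 3, and each other member had 1 window. Capitals mark TGACGT on either strand (ACGTCA when it is on the opposite one) and the TATA sequence TATAAA. Junb, which did not pass the test, is shown for comparison.
Fos, chr12:85473640-85473939, plus strand: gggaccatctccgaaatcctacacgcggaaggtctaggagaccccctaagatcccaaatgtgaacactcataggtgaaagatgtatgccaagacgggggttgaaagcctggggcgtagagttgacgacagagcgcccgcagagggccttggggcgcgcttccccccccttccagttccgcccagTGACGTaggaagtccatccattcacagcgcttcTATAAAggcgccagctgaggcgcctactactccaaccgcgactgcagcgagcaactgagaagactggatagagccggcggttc
Atf3, chr1:191183284-191183583, minus strand: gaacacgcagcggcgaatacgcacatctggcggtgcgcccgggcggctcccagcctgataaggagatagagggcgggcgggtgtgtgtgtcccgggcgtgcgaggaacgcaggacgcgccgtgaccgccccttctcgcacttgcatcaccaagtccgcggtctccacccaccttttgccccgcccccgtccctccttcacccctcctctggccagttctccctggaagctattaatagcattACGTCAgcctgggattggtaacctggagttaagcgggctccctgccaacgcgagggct
Maff, second window, chr15:79347270-79347569, plus strand: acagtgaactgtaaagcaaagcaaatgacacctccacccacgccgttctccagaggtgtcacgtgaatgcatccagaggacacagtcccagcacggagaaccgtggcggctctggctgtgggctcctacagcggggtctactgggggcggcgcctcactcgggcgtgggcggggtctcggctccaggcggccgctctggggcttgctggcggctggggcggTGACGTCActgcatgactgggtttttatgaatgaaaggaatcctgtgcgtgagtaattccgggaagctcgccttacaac
Junb, chr8:84978699-84978998, minus strand: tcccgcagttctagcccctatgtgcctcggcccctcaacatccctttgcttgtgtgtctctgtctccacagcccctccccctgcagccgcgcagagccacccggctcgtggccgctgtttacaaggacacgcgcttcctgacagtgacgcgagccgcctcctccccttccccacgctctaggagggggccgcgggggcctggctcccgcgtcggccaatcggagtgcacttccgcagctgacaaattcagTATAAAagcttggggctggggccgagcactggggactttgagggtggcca

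In Fos the hexamer began 66 bases before the start site and was followed downstream by TATAAA at −33. In Atf3 it began at −8 on the opposite strand, and in Maff it was part of a full TGACGTCA at −29. The pentamer TGACG was more widespread, with 6 of the 9 members holding it, against 30.0% of the windows of tested genes, and the letters after it differed. One stretch per member is shown, with TGACG in capitals and on the strand that reads it; Fos held another at −129 and Maff another at −122 of its window 3, neither followed by T.
Fos at −66: ttccgcccagTGACGtaggaagtccatc
Maff at −29: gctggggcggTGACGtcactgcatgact
Atf3 at −7, opposite strand: aatcccaggcTGACGtaatgctattaat
Fosb at −60: gagttgcgggTGACGcaagcgcgggggc
Junb at −106: ttcctgacagTGACGcgagccgcctcct
Mafk at −41: ggcggggcggTGACGcgcttcgacgcgc
Of all 32851 windows in the RefSeq set, 7.51% held TGACGT and 1.79% held TGACGTCA, and of the 13886 windows of tested genes 11.1% and 2.97% did. The element was picked out after these windows had been read, and the match is a description. Across the table it did not go with lower calls: 13.6% of the 1409 tested genes with TGACGT in a window were lower, against 15.1% of the 9463 without it. The pattern TGANTCA, which is wider than the AP-1 site and takes it in, and the CArG box were in 0 of the 9 members' windows. Of all windows, 7.81% and 1.63% held them. Sequence outside these short windows was not searched, nor were sites that differ from the exact patterns. Whether the members have such sites elsewhere or in variant form was therefore not tested. The RefSeq start site of the Jund window lay 1210 bases upstream of the GENCODE start of the gene, and the Atf3 window lay at a start site 34706 bases inside the GENCODE gene. The Maff window with the hexamer lay at a start site 899 bases inside the gene. Window 1 of Maff, at the GENCODE start, did not hold it. The windows of lower and other members were thus not placed alike.

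Neither Fosl2 nor Fosb was called lower, and Fosl1 was not tested. Fosl2 (ENSMUSG00000029135.10, chromosome 5, 32135801 to 32157842), which encodes FRA-2, had a mean normalized count of 1633 and a log2 fold change of 0.35 ± 0.17 (adjusted p = 0.096). Its 95% interval ran from 101% to 161% of the untreated level. Its call depended on the zero point: recentred on the housekeeping list, whose median was −0.15, Fosl2 was at 0.50 and passed as higher (adjusted p = 0.012), while on genes with a mean of at least 100, whose median was −0.05, its adjusted p was 0.055. Its reads per library were not recovered, which was tried only for means up to 150.

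Fosb (ENSMUSG00000003545.3, chromosome 7, 19302696 to 19310051), another immediate early gene, was weakly measured. It had 27, 11, 15, 13 and 12 reads in L1 to L5, and its normalized counts were 48.8, 11.6, 15.4, 9.53 and 8.35. L1 was 3.17 times the next library, and L1 was also the library with high counts of weakly expressed genes in general. By the signs of the genes with 1 read, L1 and L5 would both be treated, and L5 was the lowest for Fosb. The part of L1 in the Fosb values was not tested. The log2 fold change of Fosb was 0.26 ± 0.41 (adjusted p = 0.51), so the interval of 69.0% to 208% of the untreated level leaves a change of either sign. Fosl1 (ENSMUSG00000024912.6, chromosome 19, 5447547 to 5455946), which encodes FRA-1, had 3 reads in the 5 libraries together, 1 in L2 and 2 in L3. It had no adjusted p, and no fold is given. Of its 1864 transcript bases, 62.4% lie opposite exons of Ccdc85b, and this covers all of the last 500 bases before its 3′ end. Whether the counting used strand is uncertain, because the labels and the methods name different library kits, so a lack of Fosl1 reads cannot be told apart from reads lost to this overlap.

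Of the JUN genes, Jun and Junb were measured precisely and Jund was not. Jun (ENSMUSG00000052684.4, chromosome 4, 95049034 to 95052222), the partner that FOS proteins need, had a mean normalized count of 1765 and a log2 fold change of −0.23 ± 0.17 (adjusted p = 0.33). Its interval was 67.7% to 107% of the untreated level, so a fall as large as that of Fos lies outside it. Junb (ENSMUSG00000052837.7, chromosome 8, 84974484 to 84978718), a weaker activator that can oppose JUN, had a mean of 1323 and stood at 0.07 ± 0.16 (adjusted p = 0.83), with an interval of 84.3% to 130%. Jund (ENSMUSG00000071076.6, chromosome 8, 70698949 to 70700616), the JUN gene linked to resting cells, had only 11 reads in all: 2, 2, 2, 5 and 0 in L1 to L5. Its log2 fold change of −0.09 ± 0.44 (adjusted p = 0.67) therefore carries little weight, and its sign turned on the housekeeping zero point (0.06). In Jund, 52.6% of the transcript lies opposite an exon of the antisense gene Gm11175, which was listed at 0. In Jun this share was 7.28%, from the antisense gene Junos with a mean of 5.79. For both Jund and Jun, 0 of the last 500 transcript bases were overlapped. The part of these overlaps in the levels was not tested.

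Mafk (ENSMUSG00000018143.10, chromosome 5, 139791513 to 139802653), the other small MAF gene, had 11, 6, 10, 20 and 5 reads in L1 to L5. Its normalized counts ran from 3.48 in L5 to 19.9 in L1. The log2 fold change was −0.13 ± 0.39 (adjusted p = 0.74), with an interval of 53.6% to 156% of the untreated level, and its sign turned on the housekeeping zero point (0.02). For each of the 6 members with recovered counts other than Fosl1, L5 was the lowest library. L5, which would be treated by the signs of the genes with 1 read, had the largest implied size factor (1.44). Reads are divided by this factor, and L1 had the smallest (0.553). The part of this scaling in the low L5 values was not tested. Among the 2669 genes with a mean between 3 and 10, L5 was the lowest in 28.8%, but none of these 6 members has a mean in that range.

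**Figure D2:**
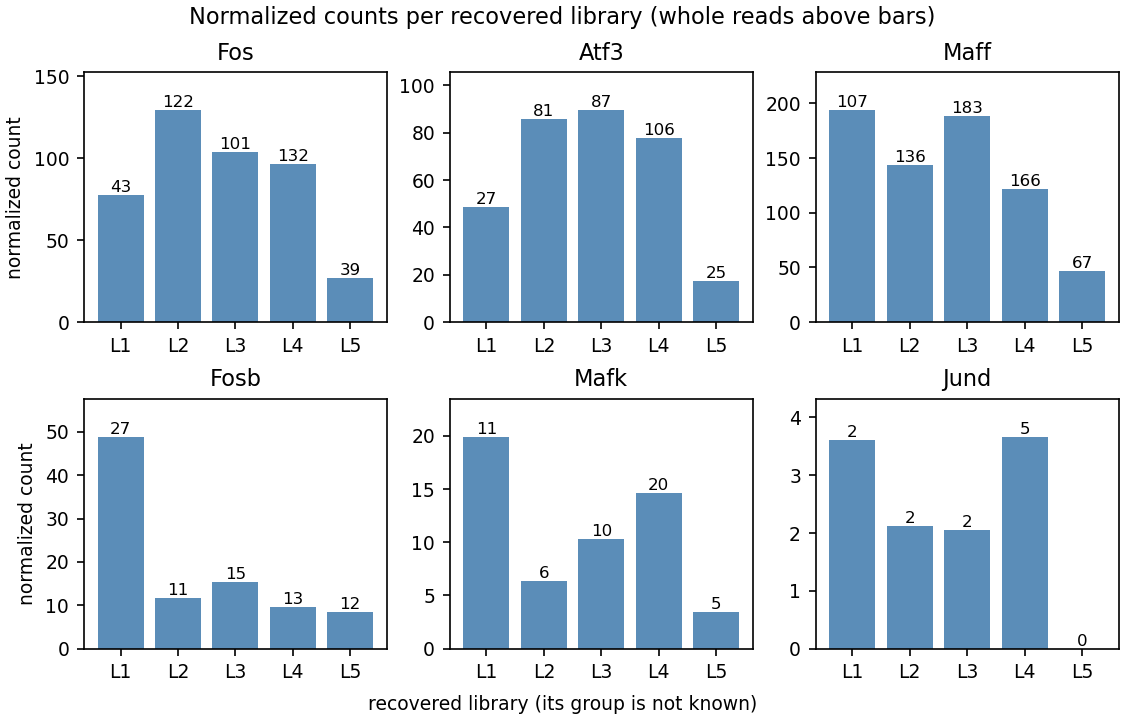
Normalized counts (y axis, linear from 0, own scale in each panel) of 6 AP-1 genes in the recovered libraries L1 to L5 (x axis), whose groups are not given, with whole reads above the bars. L5 is the lowest bar in all 6 panels; L1 is far above the rest for Fosb (48.8) and in the lower part for Atf3 (48.8).

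Set side by side within their subfamilies, the members made 10 pairs, and 3 of these had a difference whose 95% interval left out 0. All 3 involved Fos. The log2 fold change of Fos minus that of Fosl2 was −1.92 ± 0.34 (SE), with an interval of −2.59 to −1.25. Fos minus Fosb was −1.82 ± 0.50 (−2.81 to −0.84). The difference from Fosl1 rests on the 3 reads of that gene and on a value shrunk towards 0. It therefore does not show that Fos and Fosl1 differed. Jun minus Junb was −0.30 ± 0.23 (−0.75 to 0.16) and Maff minus Mafk −0.66 ± 0.49 (−1.63 to 0.31), so neither pair was separated. The SE of a difference treats the 2 genes as independent, although they were measured in the same libraries, and no p-value was taken. In the order from Atf3 at the low end to Fosl2 at the high end, every difference between neighbours had a 95% interval that included 0.

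**Figure D3:**
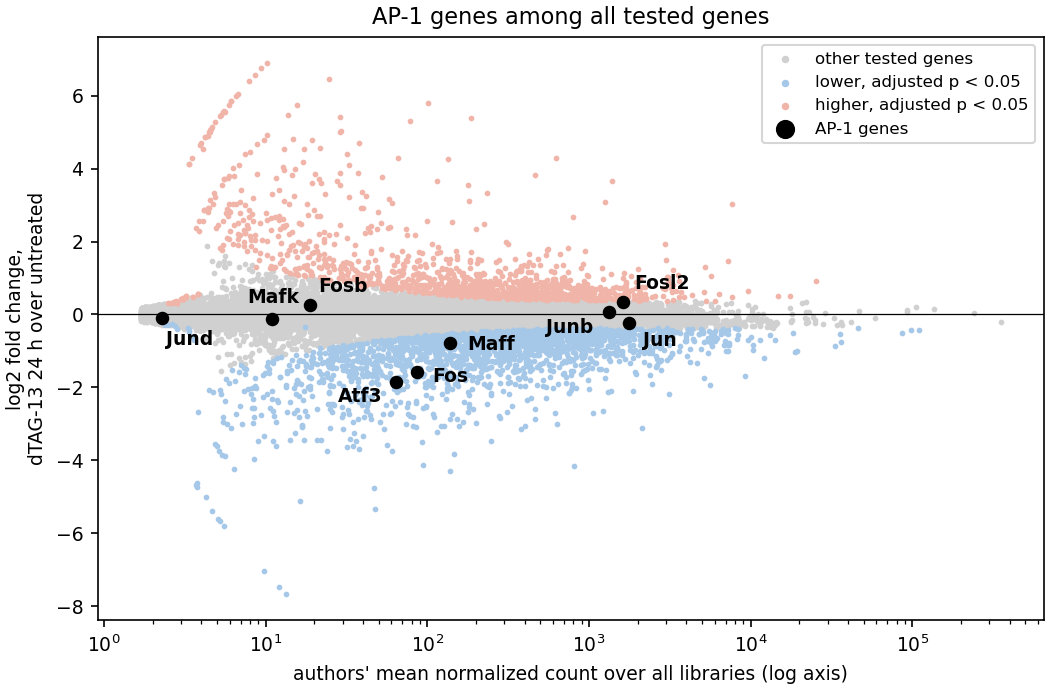
Log2 fold change (24 h dTAG-13 against no dTAG) (y axis) against mean normalized count on a log axis (x axis) for the 16773 tested genes, with the 9 tested AP-1 genes in black. Fos, Atf3 and Maff (means 86.9, 63.8 and 139) lie among the lower genes, while Jun, Junb and Fosl2, with means of 1323 to 1765, lie at −0.23, 0.07 and 0.35.

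The members also differ in gene structure, which the choice of genes did not use. Jun, Junb and Jund have 1 exon, as 3.0% of the 12681 tested genes with a protein-coding transcript do, and the other 7 have 3 or 4, against a median of 9. The destabilizing pentamer AUUUA of short-lived mRNAs occurs as ATTTA in the 3′ untranslated region 4 times in Fos, 3 times in Atf3 and 4 times in Maff. It is equally frequent in Jun (4) and more so in Fosl2 (8), which did not fall, and 36.7% of the tested genes have at least 3. So neither feature set the 3 lower genes apart.

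Of the 60 nearest tested neighbours that do not overlap a member, 3 on each side of each, 13 (21.7%) were lower and 3 higher, with a median log2 fold change of −0.05. The difference of this share from the 12.5% of all tested genes was not tested. Around the 3 lower members 5 of 18 were lower and 0 higher. They were Nsl1, Batf3 and Nenf beside Atf3 (log2 fold changes of −1.005, −2.95 and −0.67, adjusted p = 0.0099, 0.021 and 0.00033) and Nek9 and Jdp2 beside Fos (−0.48 ± 0.18 and −0.57 ± 0.18). Jdp2, which encodes a repressor that pairs with JUN, lies 121754 bases from Fos, and Batf3, an AP-1 relative with a mean of only 5.48, lies 61351 bases from Atf3. No neighbour of Maff passed. Around the others, the falls were those of Rtn2 and Vasp and of Cd3eap beside Fosb, Rnaseh2a beside Junb, Gdf15 beside Jund, Micall2 and Mad1l1 beside Mafk and Gm25432 beside Fosl1. The rises were Tek and Fggy beside Jun (1.93 ± 0.65 and 5.74 ± 1.36, with means of 17.5 and 15.6) and Drap1 beside Fosl1 (0.43 ± 0.17).

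Among 18 further genes for AP-1 partners and antagonists, 15 were tested, of which 4 (26.7%) were lower and 1 higher, against 12.5% lower and 7.45% higher in all tested genes. The fall of Creb5, an ATF2 relative, was 1.11 ± 0.22 on the log2 scale (adjusted p = 1.1e-06), and besides Jdp2 and Batf3 the small MAF gene Mafg fell by 0.43 ± 0.18 (adjusted p = 0.040). Maf, a large MAF protein with an activation domain, rose by 1.05 ± 0.15 (adjusted p = 1.9e-11). Atf2 and Atf7 (0.21 ± 0.16 and 0.29 ± 0.19), and Nfe2l2 (NRF2) and Bach1 (−0.27 ± 0.15 and 0.44 ± 0.20), did not pass. The list had a median log2 fold change of −0.23. Other bZIP factors went both ways, with 5 lower (26.3%) and 4 higher of 19 tested. Creb3l1, Atf5, Ddit3 (CHOP) and Atf4 were at −1.74 ± 0.17, −1.25 ± 0.19, −1.08 ± 0.18 and −1.002 ± 0.175, against 1.81 ± 0.17 for Cebpd and 0.59 ± 0.16 for Atf6b. The protein products of Ddit3 and Atf4 act in the stress response that also induces Atf3.

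Genes that AP-1 is known to activate were taken from textbook examples. Of 23 listed, 22 were tested, and 13 (59.1%) were lower and 2 higher, with a median log2 fold change of −0.86. Of all tested genes 12.5% were lower and 7.45% higher, and the median was −0.02. Of 13 tested fibroblast markers 5 (38.5%) were lower and 1 higher. The largest falls were those of the cytokine gene Lif (−4.13 ± 0.38), cyclin D1 (Ccnd1, −2.70 ± 0.17), the EGF-like ligand Hbegf (−2.63 ± 0.18) and the urokinase receptor Plaur (−2.40 ± 0.26). The adhesion receptor Cd44 had −2.19 ± 0.17, the IL-33 receptor gene Il1rl1 −1.53 ± 0.18 and urokinase itself (Plau) −1.76 ± 0.34. The secreted protein osteopontin (Spp1) rose by 1.22 ± 0.19 and the chemokine Ccl2 by 0.52 ± 0.23. The matrix proteases Mmp3, Mmp9, Mmp10 and Mmp13, classical targets, had mean normalized counts of 7.48, 2.80, 0.411 and 11.3, so that only large changes would have been detectable. These genes have many other regulators, and the list was assembled with earlier results of the same data known.

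Among the genes of the signalling route to AP-1, 3 of 17 RAS to ERK genes (17.6%) were lower and 1 was higher, against 12.5% and 7.45% of all tested genes: Nras (−0.73 ± 0.16) and the ribosomal S6 kinases Rps6ka1 and Rps6ka2 (−1.57 ± 0.41 and −1.05 ± 0.32) against Braf (0.48 ± 0.19). Mapk3, which encodes an ERK kinase, had 0.31 ± 0.15 and did not pass. Of 17 tested JNK and p38 pathway genes only Map2k3 was called (−0.51 ± 0.16), and the JNK genes Mapk8 and Mapk9 had 0.24 ± 0.20 and 0.13 ± 0.17. The serum response factor gene Srf, whose product is known to drive Fos through the CArG box, fell by 0.81 ± 0.32 (adjusted p = 0.014), while its 5 tested cofactors did not pass. Of 13 genes for the turnover of JUN and FOS proteins 1 was lower, the adaptor Trib1 (−0.48 ± 0.18). Among 11 proteins that bind AU-rich mRNA, the decay factor Zfp36l1 rose by 1.04 ± 0.16 while Zfp36l2 and Hnrnpd had −1.49 ± 0.29 and −0.67 ± 0.21. Protein amount and phosphorylation, through which most of these kinases act on AP-1, were not measured by RNA-seq.

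**Figure D4:**
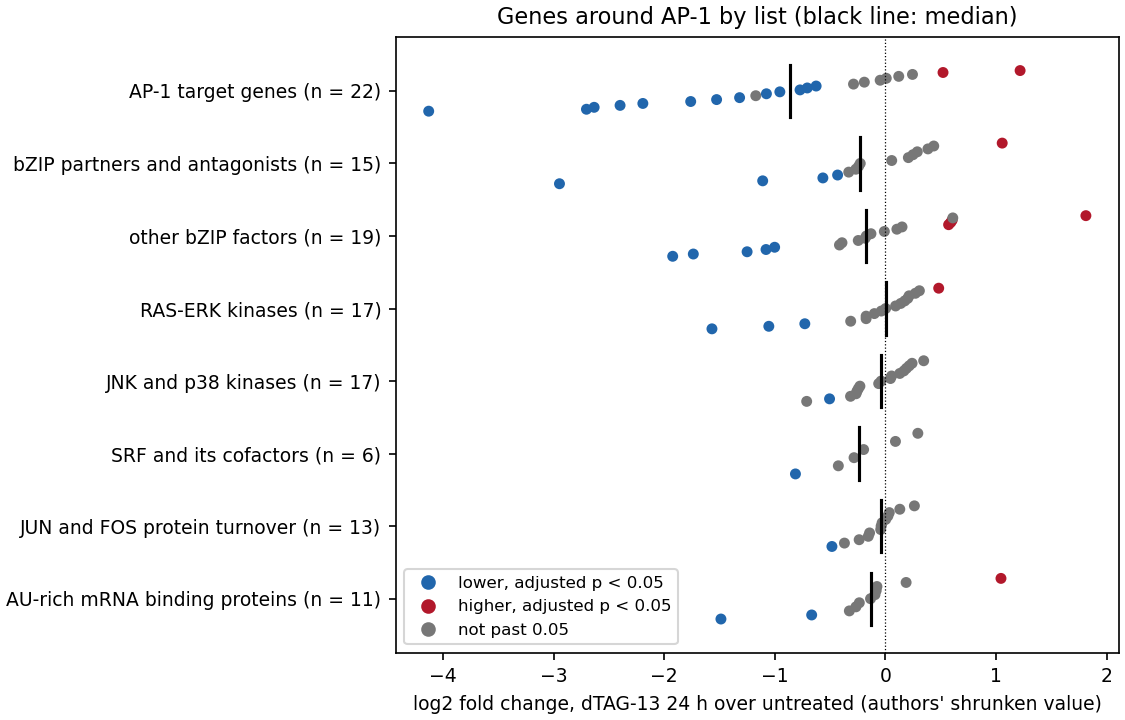
Log2 fold change (24 h dTAG-13 against no dTAG) (x axis) for each tested gene of 8 lists (y axis), blue where lower and red where higher at an adjusted p under 0.05, grey otherwise, with a black line at each median. The AP-1 target list is shifted to the left, with a median of −0.86 and 13 of 22 genes lower, while the kinase and protein turnover lists are centred near 0.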

How the data were processed

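Polyadenylated RNA of iMEF cells was sequenced in 3 libraries labelled 24 h dTAG and 3 labelled WT. Per the study's methods, the authors added ERCC spike-in RNA, used Trim Galore for trimming, STAR for alignment (mm10) and featureCounts for counting per gene, normalized the counts to the spike-ins and ran DESeq2; versions are not given in the sources used here. For the library kit, the labels give a stranded kit for total RNA, whereas the methods give one for 3′ mRNA ends. The deposited signal is a mean normalized count over all libraries. The deposited log2 fold change was shrunk by the authors, and the deposited SE belongs to it. The deposited p-value and adjusted p-value are the authors' own over all genes, since no values per library allowed another fit. Library totals were not used here, so depth is unknown, and the precision of each gene is given by its SE and, where recovered, its reads.

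The 95% intervals are fold change ± the normal quantile times SE, approximate for a shrunken estimate. Reads per library were recovered for members with a mean up to 150 as the only whole-number solution within 1e-12. This was chosen after the data were seen and was tested on simulated data, with 20 of 20 recovered. The means set for that simulation lay below those of Atf3, Fos and Maff (63.8, 86.9 and 139). Recovery at their means was therefore not simulated. Recentred p-values came from the z of the deposited p, moved by the shift over SE, with Benjamini-Hochberg adjustment over all tested genes. They were tested on simulated data in which p followed from fold change over SE. The deposited p does not follow from the shrunken fold change and its SE, so that simulation does not cover this mix. The recentred p-values are therefore approximate. All 10 members are named; from lists up to 4 called genes in the main direction and 2 against it with the smallest p were named, with a few others that were chosen after their values were seen, and of the neighbours every called one. The members and lists were chosen with earlier results of these data known. Positions are GENCODE M21 (16760 of 16773 tested genes matched). Python 3.11.15, numpy 2.4.6, pandas 2.3.3, scipy 1.17.1 and matplotlib 3.10.9 were used.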

Additional observations from a re-analysis of the deposited data

How the results depend on the processing

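The falls of Fos, Atf3 and Maff kept their direction and stayed under an adjusted p of 0.05 with fold changes recentred on genes with a mean of at least 100, recentred on the 15 housekeeping genes, and adjusted over all 24212 genes with a p-value. Across these 3 settings, the adjusted p ran up to 4.9e-06 for Fos, 8.8e-07 for Atf3 and 0.039 for Maff. With a threshold of 0.01, 2 members were lower, Fos and Atf3. Adjusted only over genes with a mean of at least 100, 1 member was lower, Maff, because Fos and Atf3 lie under that mean. The count of higher members was 0 and became 1 on the housekeeping zero point, through Fosl2. Lower AP-1 target genes numbered 13, and 11 to 13 in the other settings, which were added for this list after the data were seen; higher ones numbered 2, and 1 when adjusted over every gene with a p-value or with a threshold of 0.01. No paired analysis was possible because the deposited columns are pooled over all libraries, and leaving out a replicate was not run for the same reason. The low depth of Fosl1, Jund, Mafk and Fosb (3, 11, 52 and 78 reads in all) limits their values, and counting error alone is large there.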
